A study of Homo sapiens with 6 samples.

Results

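The mitochondrial ribosomal proteins were examined in HT1080, a human fibrosarcoma cell line, in wild type cells and in cells knocked out for the glycolytic enzyme PGK1. The group was defined by name, as every row of the deposited count table whose symbol is MRPL or MRPS followed by a number, with or without a final letter. This gave 78 of 20610 symbols, and 77 of them had at least 1 count in the 6 libraries, among 17521 genes with counts in all. By symbol, 49 belonged to the large subunit (MRPL) and 28 to the small subunit (MRPS). Of these 77, 76 passed the filter on low counts and were tested, and MRPS24 was not. MRPS26 had 0 counts in every library and was left out. It lies on chromosome 20, where 265 of 525 annotated protein-coding genes had no count in any library, so its 0 was not read as expression.

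Polyadenylated RNA was sequenced in 3 libraries of wild type (WT) HT1080 cells and 3 libraries of HT1080 cells in which PGK1 was knocked out with CRISPR-Cas9 (KO). No other allele or agent is named for either group, and the batch number is the same throughout. Not stated are the guide, a control construct for the WT cells, or whether libraries came from separate cultures or clones. The p-values therefore cover library-to-library spread alone, and that spread may be technical. Each WT library held 39150295 to 47047186 counts and each KO library 30175903 to 43890830, and a count of 1 corresponded to 0.0213 to 0.0331 CPM (counts relative to a common library total) before the scaling factors given below. In such bulk libraries fewer cells of a kind and less RNA per cell cannot be told apart. PGK1 had 55085, 62272 and 51171 counts in WT and 7144, 5515 and 5234 in KO, a log2 fold change of -3.20 (SE 0.061, edgeR adjusted p = 5.13e-15). KO library 3 stood furthest from its group. The mesenchymal markers VIM, FN1, LGALS1 and CD44 were detected in all libraries, and 4 of the 5 markers examined fell in KO (VIM from 7873 to 1939 CPM). NT5E was low, at 1.23 CPM in WT and 1.12 in KO. EPCAM was at 0 in all libraries, and CDH1 had 0 to 4 counts in WT and 32 to 43 in KO. The epithelial keratin KRT18 did not pass (121 CPM in WT, 117 in KO), and the endothelial marker PECAM1 fell (log2 -2.38, 1.91 CPM in KO). PTPRC and ALB had at most 8 counts in a library. The part of these markers in the results below was not tested.

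Mitochondria carry their own ribosome, which translates the few mRNAs of mitochondrial DNA into subunits of the respiratory chain and ATP synthase. Its RNAs are transcribed in the organelle, but all of its proteins are encoded in the nucleus, translated in the cytosol and imported. Many of these proteins have bacterial homologues, and others are found only in mitochondria. PGK1 makes ATP in glycolysis, upstream of the pyruvate that mitochondria oxidise.

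Transcripts of most mitochondrial ribosomal proteins were higher in KO cells, while a smaller set was lower. Of the 76 tested members, 52 rose and 16 fell, and the other 8 missed the threshold (edgeR quasi-likelihood test, Benjamini-Hochberg adjusted p under 0.05 over 13249 genes). Of all tested genes 76.4% changed, with 40.0% higher and 36.3% lower, so the members' 68.42% higher and 21.05% lower are to be read against that background. The median log2 fold change, KO against WT, was 0.47 over the members, with quartiles of 0.04 and 0.62. Over all tested genes the median was 0.05 and the quartiles were -0.61 and 0.67. Every KO library lay above every WT library for 53 members and below for 16, and the groups overlapped for 7. Without KO library 3, 50 members rose and 16 fell. Over all tested genes 79.2% did not overlap, 41.2% with KO above and 38.0% with KO below. With scaling by library size alone 58 members were higher and 10 lower, and 63.64% of all changed genes were higher, against 52.4% with TMM factors.

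Among the members 9 changed at least 2-fold. A change of this size past the threshold was found for 31.0% of all tested genes and for 11.84% of the members. All 9 were rises: MRPL1, MRPL35, MRPS18C, MRPS18A, MRPL46, MRPL47, MRPL57, MRPS12 and MRPL15. The 8 members that did not pass were MRPL9, MRPL19, MRPL28, MRPL41, MRPL42, MRPL45, MRPL58 and MRPS15, with KO to WT ratios of 0.920 (MRPL58) to 1.12 (MRPL41). A tested member had between 131 and 13562 counts in a library. The median member level was 36.1 CPM, against 26.68 CPM over all tested genes. The median coefficient of variation between libraries of a group was 3.98% in WT and 6.75% in KO.

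**Figure D1:**
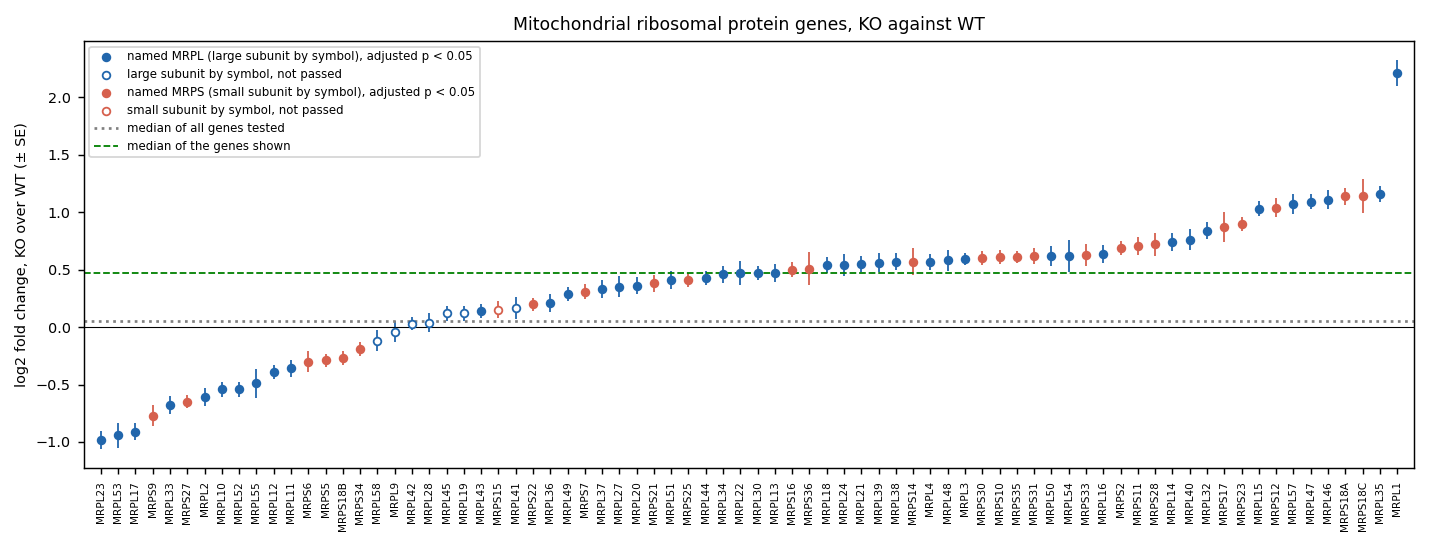
Log2 fold change, KO against WT, of each of the 76 tested mitochondrial ribosomal protein genes, ordered by value and coloured by subunit (by symbol). Bars are standard errors from edgeR over 3 libraries per group, open points did not pass an adjusted p of 0.05, and the dotted and dashed lines are the medians of all tested genes (0.05) and of the genes shown (0.47). The values run from -0.98 (MRPL23) to 2.21 (MRPL1), and most genes of both subunits lie above the dotted line.

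MRPL1 forms the mobile stalk next to the exit site of the ribosome, which moves with the departing tRNA. Its gene lies at chr4:77862830-77952785 on the plus strand of GRCh38. MRPL1 had 4.28, 4.29 and 3.88 CPM in WT and 19.3, 17.7 and 20.9 CPM in KO. Its counts were 163, 187 and 141 in WT and 926, 644 and 663 in KO. The level rose 4.65-fold, from 4.15 ± 0.235 to 19.3 ± 1.61 CPM (SD, n = 3 libraries per group; log2 fold change 2.21, SE 0.114, edgeR adjusted p = 1.69e-10). It was the least abundant tested member in WT by FPKM, and its 3 KO libraries all stood far above the 3 WT libraries.

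MRPL35 is a small protein of the large subunit with a bacterial homologue. MRPL35 had 26.3, 25.2 and 24.6 CPM in WT and 52.9, 58.0 and 58.9 CPM in KO. All KO libraries stood far above the WT range (log2 fold change 1.16, SE 0.069, edgeR adjusted p = 8.80e-10). MRPL46 and MRPL47 also more than doubled. MRPL46 belongs to the central protuberance, the crest of the large subunit that faces the small subunit head. MRPL46 had 12.9, 12.1 and 11.6 CPM in WT and 26.0, 27.0 and 25.9 CPM in KO. The KO libraries were close together, and none came near the WT range (log2 fold change 1.11, SE 0.083, edgeR adjusted p = 1.12e-08). MRPL47 sits at the rim of the tunnel through which the nascent chain leaves. MRPL47 had 38.9, 42.3 and 40.5 CPM in WT and 85.1, 81.0 and 92.8 CPM in KO. KO library 3 was the highest and the groups did not overlap (log2 fold change 1.09, SE 0.066, edgeR adjusted p = 1.06e-09). MRPL57, found only in mitochondrial ribosomes, had 14.7, 14.1 and 12.4 CPM in WT and 29.5, 27.9 and 29.2 CPM in KO (log2 fold change 1.07, SE 0.086, edgeR adjusted p = 2.38e-08). MRPL15, a protein of the rRNA core of the large subunit, had 35.1, 36.1 and 33.8 CPM in WT and 74.0, 67.2 and 73.4 CPM in KO (log2 fold change 1.03, SE 0.064, edgeR adjusted p = 1.40e-09). In both genes each KO library was above each WT library.

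Among members with small-subunit symbols the largest rises were those of MRPS18C, MRPS18A, MRPS12 and MRPS23. MRPS12 lies at the decoding site, where its bacterial homologue affects the accuracy of translation. MRPS12 had 29.8, 24.4 and 25.9 CPM in WT and 54.7, 52.2 and 57.8 CPM in KO. WT library 1 was the highest of its group and still lay well below every KO library (log2 fold change 1.04, SE 0.080, edgeR adjusted p = 1.59e-08). MRPS23, a mitochondria-specific protein, had 49.1, 51.4 and 51.7 CPM in WT and 97.9, 87.3 and 97.8 CPM in KO (log2 fold change 0.90, SE 0.062, edgeR adjusted p = 4.79e-09). All 3 KO libraries were again above the WT range.

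**Figure D2:**
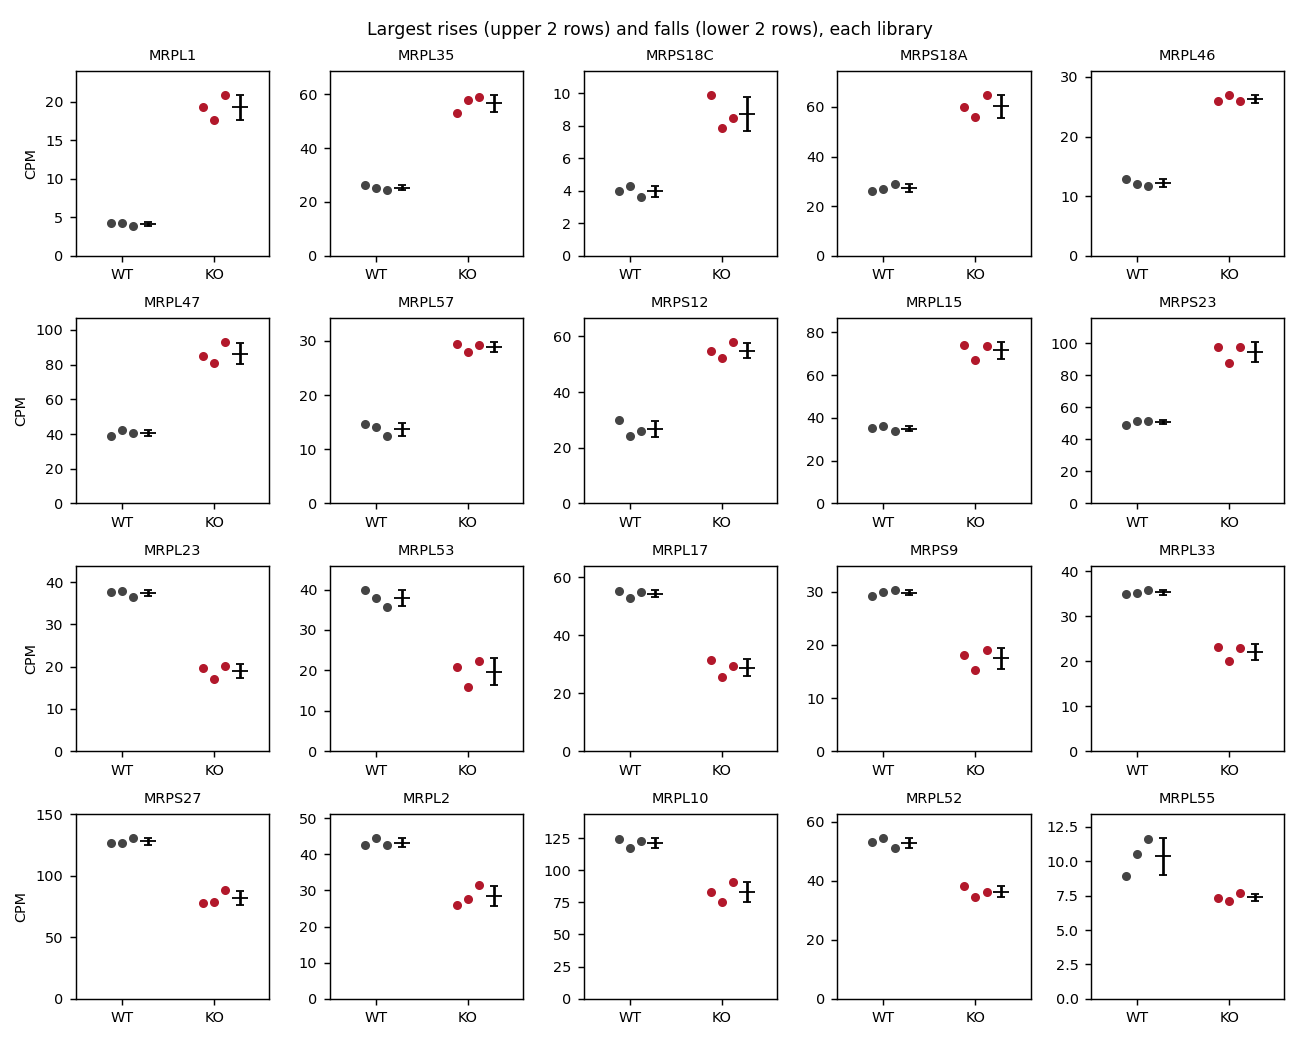
Level in CPM (TMM-scaled, axis from 0) of the 10 members with the largest rises and the 10 with the largest falls in each library; points are the 3 WT and 3 KO libraries, and the marks beside them are the mean and SD. In each panel the WT and KO points do not overlap, for example MRPL1 with 3.88 to 4.29 CPM in WT and 17.7 to 20.9 CPM in KO.

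The falls were smaller than the largest rises, and none reached 2-fold. MRPL23 and MRPL17 are both conserved proteins at the rim of the exit tunnel. MRPL23 had 37.8, 37.9 and 36.6 CPM in WT and 19.7, 17.2 and 20.1 CPM in KO. No KO library came near the WT range (log2 fold change -0.98, SE 0.079, edgeR adjusted p = 2.61e-08). MRPL17 had 55.1, 52.9 and 54.9 CPM in WT and 31.5, 25.6 and 29.2 CPM in KO. The highest KO library stood well below the lowest WT library (log2 fold change -0.91, SE 0.077, edgeR adjusted p = 4.29e-08). MRPL53, a mitochondria-specific protein, had 39.8, 38.0 and 35.7 CPM in WT and 20.8, 15.9 and 22.3 CPM in KO (log2 fold change -0.94, SE 0.108, edgeR adjusted p = 3.14e-06). KO library 2 was the lowest, and the groups were apart in each of these 3 genes.

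MRPS9 reaches with its tail toward the decoding site. MRPS9 had 29.3, 29.9 and 30.3 CPM in WT and 18.2, 15.2 and 19.0 CPM in KO. It fell in KO, with no overlap (log2 fold change -0.77, SE 0.089, edgeR adjusted p = 1.52e-06). MRPS27 is a pentatricopeptide repeat protein of the small subunit. MRPS27 had 126, 127 and 131 CPM in WT and 77.9, 79.0 and 88.2 CPM in KO. All KO libraries lay below all WT libraries (log2 fold change -0.65, SE 0.058, edgeR adjusted p = 9.57e-08). MRPL2 lies near the peptidyl transferase centre. MRPL2 had 42.5, 44.6 and 42.7 CPM in WT and 26.1, 27.6 and 31.4 CPM in KO. Its KO libraries were also below the WT range (log2 fold change -0.61, SE 0.077, edgeR adjusted p = 4.01e-06). The other falls among the 10 largest were those of MRPL33 (log2 -0.68), MRPL10 (-0.54), MRPL52 (-0.54) and MRPL55 (-0.49), each with KO below WT in every library. The fall of MRPL55 did not pass after scaling by library size alone (log2 -0.27, edgeR adjusted p = 0.069) or once the GC and length trend was removed (log2 -0.20, limma adjusted p = 0.191).

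Grouped by place in the ribosome, the members did not all move in the same direction. All 3 proteins of the stalk that recruits elongation factors fell. MRPL10 anchors this stalk, MRPL12 forms it, and MRPL11 lies at its base. MRPL10 had 124, 117 and 123 CPM in WT and 83.2, 75.6 and 90.8 CPM in KO. MRPL12 had 73.8, 75.1 and 70.5 CPM in WT and 55.2, 52.6 and 60.1 CPM in KO. MRPL11 had 23.5, 24.5 and 23.2 CPM in WT and 18.3, 18.6 and 18.4 CPM in KO. In each gene all KO libraries were below all WT libraries. The log2 fold changes were -0.54 for MRPL10 (SE 0.065, edgeR adjusted p = 2.27e-06), -0.39 for MRPL12 (SE 0.064, adjusted p = 5.88e-05) and -0.36 for MRPL11 (SE 0.076, adjusted p = 0.000527). The fall of MRPL10 passed under every alternative run. That of MRPL11 did not pass after scaling by library size alone (log2 -0.14, adjusted p = 0.11), nor that of MRPL12 once the GC and length trend was removed (log2 -0.09, limma adjusted p = 0.242).

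All 5 proteins listed for the central protuberance rose, and this list may not hold every protein of that place. The log2 fold changes were 0.54 for MRPL18, 0.57 for MRPL38, 0.58 for MRPL48, 0.76 for MRPL40 and 1.11 for MRPL46. Members of either direction were left out of the lists by place, so the count holds for these 5 alone. Among those left out MRPL35 rose, MRPL52 (-0.54) and MRPL55 (-0.49) fell, and MRPL58 (-0.12) did not pass. Of 9 proteins around the exit tunnel, 6 rose and 2 fell. MRPL45, which helps to tether the ribosome to the inner membrane, did not pass. MRPL45 had 67.7, 62.3 and 63.5 CPM in WT and 65.4, 69.1 and 75.6 CPM in KO. The groups overlapped, and the log2 fold change was 0.12 (SE 0.066, edgeR adjusted p = 0.115). It passed with upper quartile factors (log2 0.17) and with library size alone (0.34), and did not pass with RLE factors (0.09, adjusted p = 0.247). Of 4 proteins near the peptidyl transferase centre, MRPL3 (0.59), MRPL16 (0.64) and MRPL27 (0.35) rose and MRPL2 fell. The rise of MRPL27 did not pass without the GC and length trend (log2 0.12, limma adjusted p = 0.231). Of 5 proteins of the decoding site and head, MRPS7 (0.31), MRPS10 (0.61), MRPS12 (1.04) and MRPS14 (0.57) rose and MRPS9 fell.

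MRPS18A, MRPS18B and MRPS18C are 3 paralogues related to a single bacterial protein, of which 2 rose and 1 fell. By the names of the ribosome structure MRPS18C alone is counted below as a bacterial homologue, and the other members of the trio as mitochondria-specific. MRPS18A had 26.1, 26.9 and 29.1 CPM in WT and 59.9, 55.8 and 64.9 CPM in KO. MRPS18C had 3.99, 4.26 and 3.60 CPM in WT and 9.90, 7.84 and 8.47 CPM in KO. Both rose, and for both every KO library lay above the WT range (log2 fold change 1.14, SE 0.074, edgeR adjusted p = 2.36e-09 for MRPS18A; 1.14, SE 0.148, edgeR adjusted p = 5.13e-06 for MRPS18C). MRPS18B had 102, 103 and 97.5 CPM in WT and 80.4, 80.0 and 90.6 CPM in KO. This paralogue fell slightly (log2 -0.27, SE 0.060, edgeR adjusted p = 0.000911), and the difference in response between the paralogues was not tested. After scaling by library size alone the change of MRPS18B was -0.05 and did not pass (adjusted p = 0.43). The exons of MRPS18C share 1347 bases with ABRAXAS1 on the opposite strand, and those of MRPS18A share 604 bases with RSPH9. How the counting treated strand was not stated in the sources, and reads of such pairs cannot be told apart.

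Names do not always match place. MRPS18A and MRPS30 carry small-subunit symbols but sit in the large subunit of the human ribosome. MRPS30 had 58.4, 56.9 and 58.0 CPM in WT and 83.0, 85.5 and 93.6 CPM in KO. The KO libraries were all higher (log2 fold change 0.60, SE 0.060, edgeR adjusted p = 3.47e-07). MRPS36 carries a ribosomal name, but its product is a subunit of the oxoglutarate dehydrogenase complex. MRPS36 had 6.02, 8.71 and 7.56 CPM in WT and 11.7, 10.1 and 9.95 CPM in KO. It rose with the groups apart by a narrow gap (log2 fold change 0.51, SE 0.143, edgeR adjusted p = 0.00462). It did not pass once the GC and length trend was removed (log2 0.11, limma adjusted p = 0.458).

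By symbol, 32 of 49 large-subunit genes rose and 10 fell (median log2 fold change 0.43). In the small subunit 20 of 27 rose and 6 fell, and the median was 0.57. The falls depended on the scaling. With library size alone 21 small-subunit genes were higher and 2 lower, and 37 large-subunit genes were higher and 8 lower. On both log2 FPKM scales (limma) 2 small-subunit and 10 large-subunit genes were lower. Assigned by place in the ribosome, the large subunit had 34 higher and 10 lower of 51 (median 0.46), and the small subunit 17 higher and 6 lower of 24 (median 0.54). Members with a bacterial homologue and mitochondria-specific members had 30 higher and 11 lower of 45 (median 0.47), and 21 higher and 5 lower of 30 (median 0.42). Without the GC and length trend the medians by symbol were 0.36 for the large and 0.37 for the small subunit. The counts are to be read beside the 40.0% higher and 36.3% lower among all tested genes. All these medians are descriptions, and their differences were not tested.

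The summed level of the members was higher in each KO library. It was 3198, 3160 and 3149 CPM in WT and 3884, 3677 and 4079 CPM in KO, or 3169 ± 25.8 and 3880 ± 201 CPM (SD, n = 3 libraries per group), a ratio of 1.22. As a share of all counts, without scaling factors, the sum was 0.294%, 0.293% and 0.292% in WT and 0.424%, 0.403% and 0.429% in KO. The ratio of means is then 1.43. The TMM scaling factors, which separate these ratios, lay between 0.921 and 0.929 for WT and between 1.053 and 1.097 for KO. The large-subunit sum was 1941 ± 27.1 CPM in WT and 2343 ± 128 in KO. The small-subunit sum was 1228 ± 7.15 CPM in WT and 1537 ± 73.0 in KO.

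The balance between subunits depended on how the genes were assigned. By symbol, the ratio of large to small subunit CPM was 1.602, 1.590 and 1.551 in WT and 1.537, 1.508 and 1.530 in KO, with every KO library lower. By place in the ribosome it was 1.803, 1.794 and 1.757 in WT and 1.813, 1.788 and 1.818 in KO, and the groups overlapped.

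**Figure D3:**
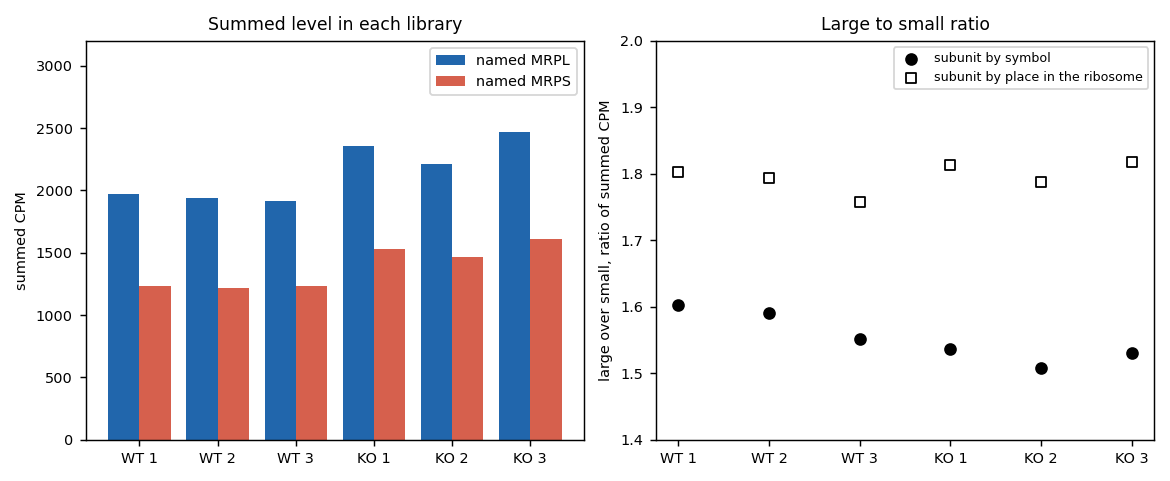
Summed level in CPM of the large and small subunit members in each library, and the ratio of the 2 sums with genes assigned by symbol or by place in the ribosome. Bars (axis from 0, genes by symbol) and points are single libraries, and the ratio axis does not start at 0. Both sums are higher in all KO libraries, while the ratio is lower in KO by symbol (1.508 to 1.537 against 1.551 to 1.602) and overlaps between groups by place in the ribosome.

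Compared per length, the members covered a wide range of transcript levels. The authors' FPKM values, which carry no TMM factor, were used for this comparison between genes. MRPL3, which reaches to the peptidyl transferase centre, was the highest in both groups, at 99.3 FPKM in WT and 174 FPKM in KO. MRPL3 had 187, 192 and 189 CPM in WT and 283, 272 and 298 CPM in KO. Its KO libraries were all above its WT libraries (log2 fold change 0.59, SE 0.051, edgeR adjusted p = 5.86e-08). In WT positions 2 to 6 were held by MRPL33 (70.2 FPKM), MRPL12 (66.7 FPKM), MRPL51 (64.3 FPKM), MRPL28 (63.4 FPKM) and MRPL10 (62.2 FPKM). In KO MRPL51 and MRPL28 stood at positions 2 and 6, with 99.5 and 76.0 FPKM. MRPL33, MRPL12 and MRPL10 stood at positions 23, 13 and 26 in KO, with 51.1, 59.5 and 49.7 FPKM. MRPL53 moved from position 9 to 41, and MRPS2, at position 11 in WT, to 3. At the lower end MRPL1 moved from position 76 of 77 in WT (2.83 FPKM) to 65 in KO (15.3 FPKM). Of the 76 pairs of neighbours in the WT order, every library of the higher gene lay above every library of the lower gene in 14. In the others the order is within the spread.

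The members' levels lay closer together in KO. The SD of log2 FPKM over the tested members was 1.106, 1.075 and 1.103 for WT and 0.972, 0.977 and 1.025 for KO. Without MRPL1 it was 1.059, 1.027 and 1.051 in WT and 0.970, 0.975 and 1.025 in KO, and the groups then lay apart by a small margin. Between group means the Pearson correlation of log2 FPKM over the 76 genes was 0.847, a description over genes that share their lengths between groups. The median FPKM was 23.6 in WT and 34.6 in KO.

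**Figure D4:**
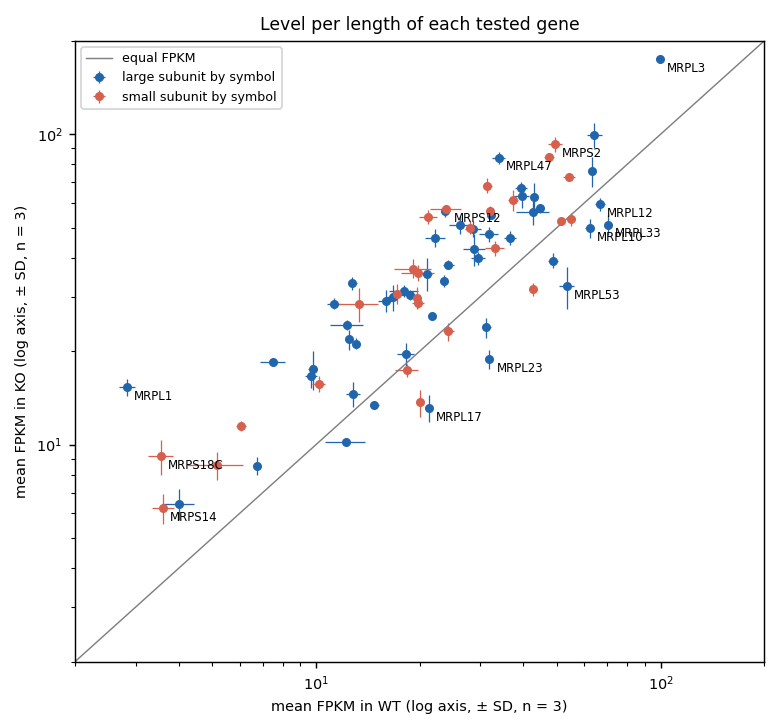
Mean FPKM in KO against mean FPKM in WT for the mitochondrial ribosomal protein genes, both axes on a log scale; each point is a tested gene with SD over 3 libraries per group, coloured by subunit, and the line marks equal values. MRPL3 is highest in both groups (99.3 and 174 FPKM), and MRPL1 lies furthest above the line (2.83 and 15.3 FPKM).

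MRPS24 could not be read. It had 1, 1 and 3 counts in WT and 10, 5 and 7 in KO, below the filter. Its exons share 606 bases on the same strand with the read-through gene URGCP-MRPS24. More broadly, 25 members share exon bases with another gene, among them MRPL46 (721 bases) and MRPL12 (701 bases) on the same strand, and MRPS12 (349 bases, with SARS2). Among the 52 members with none, 34 rose and 13 fell (median 0.52), and among the 24 tested members with shared bases, 18 rose and 3 fell (median 0.41). A named pseudogene is annotated for 34 members, with 8 for MRPS21, 5 for MRPL57 and 4 for MRPL35, and reads from such copies may be assigned to either locus.

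Promoter sequences were searched for short motifs of transcription factors, in windows from 250 bases before to 50 bases after the start (RefSeq, GRCh38.p14). Windows were found for 68 of the 77 members, 84 in all. The core of the ETS family, CCGGAAG, on either strand, was in 38.1% of member windows, 10.26% of all 35116 windows and 15.73% of windows of tested genes. The YY1 motif AAGATGGC, on either strand, was in 27.38%, 2.888% and 4.541%. The NRF1 motif was in 11.9%, 5.784% and 8.991%. The ATF4 motif TGATGNAA was in 1.19%, 3.617% and 2.202%, and the hypoxia response letters ACGTGC in 9.524%, 6.889% and 8.181%. The remaining motifs searched were CACGTG (10.71%, 7.256% and 9.154%) and CCAAT (33.33%, 34.61% and 34.76%). CACGTG and ACGTGC can share letters. These are matches of letters, not measured binding.

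Of 29 tested members with the ETS core, 23 rose and 4 fell (median log2 fold change 0.54), and of 38 without it 23 rose and 9 fell (median 0.37). Of 20 with the YY1 motif 15 rose and 3 fell (median 0.44), and of 47 without it 31 rose and 10 fell (median 0.46). Of 9 with the NRF1 motif 6 rose and 2 fell, and of 58 without it 40 rose and 11 fell. For CCAAT, 19 of 23 with it rose and 2 fell, and 27 of 44 without it rose and 11 fell. For CACGTG, 8 of 9 with it rose and 0 fell, and 38 of 58 without it rose and 13 fell. For ACGTGC, 5 of 8 with it rose and 0 fell, and 41 of 59 without it rose and 13 fell. The 1 member with the ATF4 motif, MRPL55, fell (log2 -0.49). Its call was lost with library size alone and without the GC and length trend. Of 66 without the ATF4 motif 46 rose and 12 fell. Over all tested genes 40.0% were higher and 36.3% lower, and no motif was tested against direction. The 250 bases before the start are given for 2 members that rose with the ETS core (MRPL47 and MRPS18A), 2 that fell with it (MRPL53 and MRPL33) and for MRPL1, the largest rise, which has neither match. They are written 5′ to 3′ on the strand of the gene, with capitals for the ETS core. In MRPL47 capitals also mark the YY1 motif on the opposite strand. The neighbour NDUFB5 starts on the opposite strand 36 bases from MRPL47, so most of the MRPL47 window lies within NDUFB5. NDUFB5 fell in KO (log2 -0.62). The positions are chr3:179604639-179604888 (minus strand) for MRPL47, chr6:43687792-43688041 (minus) for MRPS18A, chr2:74472681-74472930 (minus) for MRPL53, chr2:27771469-27771718 (plus) for MRPL33 and chr4:77862580-77862829 (plus) for MRPL1.
MRPL47: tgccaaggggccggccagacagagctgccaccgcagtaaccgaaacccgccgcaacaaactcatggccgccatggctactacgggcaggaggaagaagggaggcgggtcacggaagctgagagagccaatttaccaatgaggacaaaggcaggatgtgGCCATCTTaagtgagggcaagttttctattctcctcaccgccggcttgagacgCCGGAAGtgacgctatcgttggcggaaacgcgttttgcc
MRPS18A: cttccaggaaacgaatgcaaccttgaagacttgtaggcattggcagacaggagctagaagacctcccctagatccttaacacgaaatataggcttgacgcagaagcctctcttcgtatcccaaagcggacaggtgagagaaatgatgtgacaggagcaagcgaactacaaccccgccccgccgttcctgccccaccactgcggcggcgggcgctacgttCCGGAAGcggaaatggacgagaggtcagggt
MRPL53: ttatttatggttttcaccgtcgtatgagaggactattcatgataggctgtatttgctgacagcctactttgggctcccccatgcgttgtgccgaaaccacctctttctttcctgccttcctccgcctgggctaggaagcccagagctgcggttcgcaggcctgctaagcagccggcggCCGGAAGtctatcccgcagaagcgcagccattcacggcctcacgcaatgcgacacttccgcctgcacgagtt
MRPL33: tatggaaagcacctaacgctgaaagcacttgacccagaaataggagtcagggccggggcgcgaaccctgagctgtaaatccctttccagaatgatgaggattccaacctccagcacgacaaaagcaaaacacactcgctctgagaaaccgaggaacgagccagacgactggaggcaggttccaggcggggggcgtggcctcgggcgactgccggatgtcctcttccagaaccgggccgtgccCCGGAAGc
MRPL1: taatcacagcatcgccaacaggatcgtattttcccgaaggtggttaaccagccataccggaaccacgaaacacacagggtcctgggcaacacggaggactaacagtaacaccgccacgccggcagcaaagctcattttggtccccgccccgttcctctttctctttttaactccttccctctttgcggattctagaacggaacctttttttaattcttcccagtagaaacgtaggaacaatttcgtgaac
Of the genes printed with the core, MRPS18A had a log2 fold change of 1.14 and MRPL53 of -0.94. Whether the core bears on the direction of change was not tested.

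Some members start close to a neighbour on the opposite strand. A gene on the opposite strand that starts within 1000 bases, or overlaps by up to 200 at the start, was found for 19 of the 76 tested members (25%) and for 11.2% of 13012 tested protein-coding genes. The 19 members form 18 pairs. Both genes changed in the same direction in 7 pairs and in opposite directions in 6, and in 5 not both passed. Of all tested genes 76.4% changed, with 40.0% higher and 36.3% lower. Directions were not counted for such pairs outside the members, so the split is a description. MRPS11 and MRPL46, whose starts are 34 bases apart, both rose (0.71 and 1.11). MRPS18C and HELQ, a DNA helicase, both rose (1.14 and 1.19). MRPL43 (log2 0.14, edgeR adjusted p = 0.0437) and TWNK, the mitochondrial DNA helicase (88.1 to 228 CPM, log2 1.37), were both higher. Of the exon bases of MRPL43, 961 are shared on the opposite strand with SEMA4G and TWNK, so their reads cannot be told apart. In contrast, MRPL47 rose while NDUFB5, a complex I subunit, fell from 115 to 74.9 CPM (log2 -0.62). MRPL27 rose (0.35, a call lost without the GC and length trend) while the nuclease subunit EME1 fell (-1.91).

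Subunits of the same ribosome with other symbols, which the naming rule leaves out, mostly rose. Of 5 examined, AURKAIP1 (47.3 to 88.3 CPM), PTCD3 (44.2 to 73.2), CHCHD1 (12.6 to 20.9) and GADD45GIP1 (47.7 to 69.9) were higher. DAP3, a GTP-binding protein of the small subunit, fell from 108 to 75.9 CPM (log2 -0.51, edgeR adjusted p = 5.87e-07).

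Factors that build the ribosome moved in both directions. Of 29 tested assembly factors 19 were higher and 5 lower (median log2 fold change 0.60). FASTKD2, an RNA-binding protein of the RNA granules, rose from 32.5 to 95.2 CPM (1.55), and NGRN, which acts on the large subunit rRNA, from 89.8 to 205 CPM (1.19). NOA1, a GTPase, fell from 80.2 to 41.0 CPM (-0.97). TFB1M, which methylates the small subunit rRNA, had 2309, 2571 and 2173 counts in WT and 459, 356 and 267 in KO. All KO libraries were far below the WT libraries, at 59.8 ± 0.863 and 9.25 ± 0.735 CPM (SD, n = 3 libraries per group; log2 fold change -2.69, SE 0.078, edgeR adjusted p = 3.56e-13). The absolute log2 change of TFB1M was larger than that of any mitochondrial ribosomal protein tested.

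Translation factors of the organelle rose in 15 of 19 cases and fell in 2 (median 0.43). The elongation factors GFM1 (45.2 to 83.4 CPM) and TSFM (18.4 to 40.6 CPM) rose, as did C6orf203 (3.74 to 11.6 CPM). OXA1L, which inserts new proteins into the inner membrane, fell from 243 to 147 CPM (-0.73). All 6 genes of mitochondrial transcription and RNA maturation rose (median 1.31). POLRMT rose least, from 194.5 to 216.5 CPM (log2 0.15, edgeR adjusted p = 0.0104). TFAM, which packages mitochondrial DNA and starts its transcription, rose from 61.9 to 193 CPM (1.64, edgeR adjusted p = 1.44e-12). The initiation factor TFB2M rose from 36.1 to 93.9 CPM (1.38), MTERF1 from 9.34 to 25.9 CPM (1.47) and the tRNA-processing enzyme ELAC2 from 94.3 to 169 CPM (0.84). TFB1M and TFB2M, which are related in sequence, thus moved in opposite directions.

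Cytosolic ribosomal proteins gave another count, with 19 of 76 higher, 12 lower and 45 not passed (median 0.09). Of 37 complex I subunits 21 rose and 9 fell (median 0.26). The differences between these lists and the mitochondrial ribosomal proteins were not tested.

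**Figure D5:**
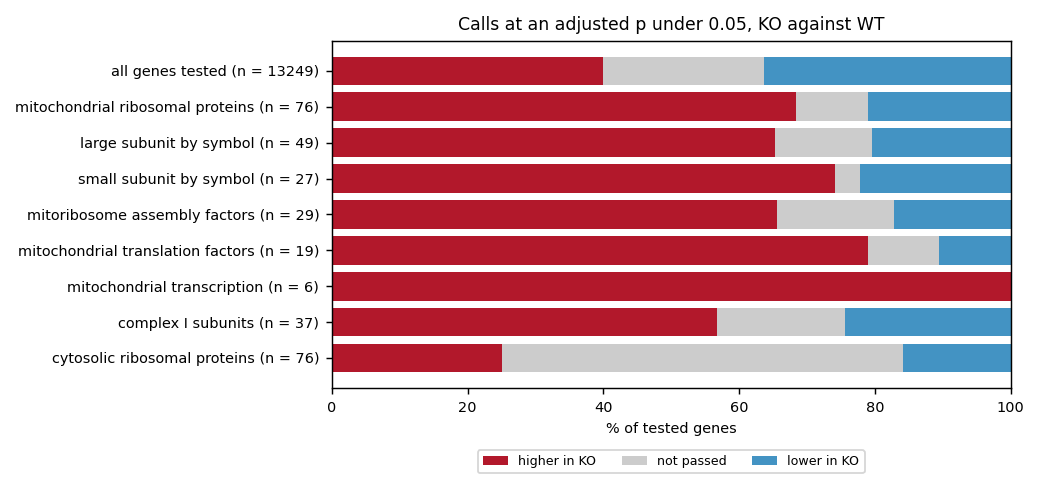
Percent of the tested genes of each list that were higher, lower or did not pass in KO against WT (edgeR, adjusted p under 0.05), with all tested genes beside them. Of the 76 mitochondrial ribosomal proteins 68.42% were higher and 21.05% lower, against 40.0% and 36.3% of all tested genes.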

How the data were processed

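For 6 polyA RNA libraries the authors deposited whole-number counts and FPKM, each by gene symbol. Per the submitters' processing notes fastp, HISAT and the build hg38 were used, with no version. The counter, annotation and strand setting: not given in the sources used here. The deposited FPKM equal count per library total and fixed gene length for all 17521 genes with a count, within a relative tolerance of 1e-06, so they served only for levels between genes and as an alternative scale.

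KO was compared with WT on counts in edgeR 4.0.16 (R 4.3.3) by its quasi-likelihood F-test (TMM, filterByExpr, robust, group as only term). A run on simulated data had few changed genes, balanced between rises and falls, so it cannot judge the scaling used here. Benjamini-Hochberg adjustment ran over the 13249 genes that passed the filter, with a threshold of 0.05, and members were read from that fit. CPM use TMM-scaled library sizes, and errors are SD over 3 libraries. Exons came from GENCODE v29 and promoters from RefSeq GRCh38.p14, both of the build named in the notes. The members and lists were chosen with earlier results of these data known, and no list was tested. Taken as named genes were the 10 largest rises and 10 largest falls past the threshold with groups that did not overlap. Some members were added whatever their value, with all members of the structural lists and all examined subunits with other symbols. Of the assembly, translation and transcription lists up to 4 genes each were taken, those with the smallest p-values, so they are not typical of their lists. POLRMT is given besides as the smallest rise of its list, and it was not followed under the alternatives. Libraries of a group correlated at 0.988 to 0.994 (log2 CPM), and those of different groups at 0.908 to 0.912. Every pair within a group differed by more than counting noise (lowest chi-square per degree of freedom, 3.69). Alternatives were RLE, upper quartile and library-size scaling, other filters, a replicate block, no robust option and each library left out. Others were a fit without the genes of chromosome 20, DESeq2 1.42.0, and limma 3.58.1 on counts (voom), on log2(FPKM + 1) and on log2(FPKM + 0.1). Removal of the GC and length trend (limma on log2 CPM) and omission of members with shared exons were added after the data were seen.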

Additional observations from a re-analysis of the deposited data

How the results depend on the processing

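No called value of the named genes turned its direction, and other members were not followed gene by gene. Of those others MRPS34, called lower (log2 -0.19), had 51.2 FPKM in WT and 52.4 in KO, a scale without TMM factors. Of 1121 values of single named genes under the alternatives, 1108 kept their side of the threshold, 9 no longer passed and 4, all of MRPL45, newly passed. Those no longer past it were MRPL55, MRPL11 and MRPS18B with library size alone, MRPS18B on both FPKM scales, and MRPL55, MRPS36, MRPL12 and MRPL27 without the GC and length trend. With library size alone 58 members were higher and 10 lower, the large-subunit median was 0.65 and the small-subunit median 0.80, while the median of all genes moved by 0.22. On log2(FPKM + 1) the medians were 0.62 and 0.70, and on log2(FPKM + 0.1) 0.65 and 0.77. The small-subunit median was 0.54 with RLE factors, with DESeq2 and by place in the ribosome, 0.62 with upper quartile factors and 0.37 without the GC and length trend (large subunit 0.36). The summed share without scaling factors had a ratio of 1.43. Without members that share exons 34 were higher. Leaving out 1 library at a time gave 50 to 53 higher and 16 lower in each run, a large-subunit median of 0.36 to 0.44 and a small-subunit median of 0.51 to 0.58.

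Same-numbered libraries did not deviate together (correlations of -0.001, 0.006 and -0.011), so no pairing by number was seen. With 3 libraries per group this check cannot settle whether same-numbered libraries were prepared together. With the replicate number as a block 51 members were higher and 16 lower, and 9986 genes changed in all. MRPS24 had too few counts to test, and the cause was not tested. The unknown strand setting limits members with shared exons, and the gap on chromosome 20 limits MRPS26.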
